A study of Drosophila melanogaster with 24 samples.

Results

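The binding of Cap-G in larval neural stem cells (NSCs, the neuroblasts of the brain) was described from the averaged Targeted DamID (TaDa) track made with the driver wor-GAL4. All 373710 GATC fragments of this track were taken, out of 1121130 fragment values in the 3 tracks of the series. The track was made from 4 of the 24 samples (2 with Cap-G-Dam, 2 with Dam-only), each of 30 brains dissected from *Drosophila melanogaster* larvae of the third instar. The Cap-G-Dam animals carried wor-GAL4, tub-GAL80ts and UAS-Cap-G-Dam, in which Dam is fused to the C-terminus of 1 isoform of Cap-G. The Dam-only animals carried wor-GAL4, tub-GAL80ts and UAS-LT3-NDam. Both genotypes were raised at 18 degrees and were moved to 29 degrees for 24 h, which inactivates the GAL80 repressor and lets the driver act. Expression is limited to cells in which wor-GAL4 is active, and the brains of each sample were pooled.

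Cap-G is a non-SMC subunit of condensin I, the ring-shaped complex that compacts chromosomes for mitosis. NSCs are among the dividing cells of the larval brain. In TaDa, Dam methylates the GATC sites near the DNA that the fusion protein meets, and the Dam-only control records how readily each site can be reached. The value of a fragment (the DNA between neighbouring GATC sites) is log2 Cap-G-Dam/Dam. Above 0 the fusion protein methylated a fragment more than the control did. Below 0 the control methylated it more, and whether Cap-G was sparse there or Dam alone was frequent cannot be told apart in the ratio. The replicates were averaged by the authors into 1 track and the read depth is not given in it, so every value below stands without an error, a replicate spread or a p-value, and calls are by size alone. "High" and "low" are used in this sense throughout.

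The largest values of the NSC track lay below 0. Of the 373710 fragments, 175000 were above 0 and 166714 were below 0, and the median was 0.0. The SD of all fragments was 0.30. There were 13034 fragments (3.49%) at 0.5 or more and 19242 (5.15%) at -0.5 or less, a ratio of 1.48. Farther out the excess below 0 was larger: 833 fragments reached 1 and 5200 reached -1, which is 6.24 times as many. At a distance of 2 from 0 there were 4 fragments above and 393 below. Fragments ran from -3.80 to 2.62.

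**Figure D1:**
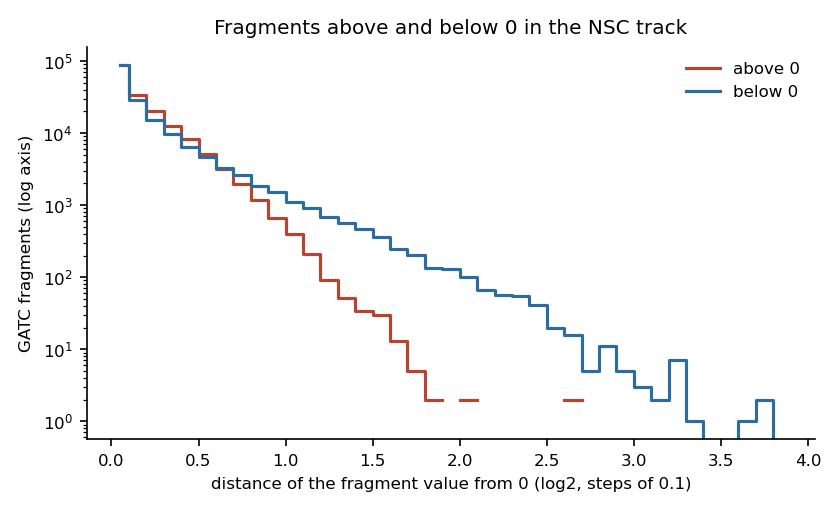
Number of GATC fragments (vertical log axis) at each distance of the fragment value from 0 (horizontal axis, log2 Cap-G-Dam/Dam, steps of 0.1), for fragments above 0 (red) and below 0 (blue) in the NSC track; fragments written as 0 are left out. The lines part with distance from 0, with 13034 fragments at 0.5 or more and 19242 at -0.5 or less, and 833 fragments reach 1 above 0 and 5200 reach it below.

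The lowest fragment of the genome, 490 bp on 3L (184428 to 184918), had -3.80 and lay across the ends of the neighbouring genes *Mkp* and *Mtch*. The next, on 2L (13176686 to 13177119, -3.75), lay at the end of *Sfmbt*, a Polycomb group gene, and over the small gene *CG43925*. The highest pair of adjoining fragments, 2.61 and 2.62, lay on 3R between 108752 and 109108, in heterochromatin next to the centromere and outside any annotated gene. On the longer of these fragments the neuronal tracks, normalised separately, had 0.28 with elav-GAL4 and 0.95 with nSyb-GAL4. Within genes, the highest fragments were at *CG1677* on X (1.88) and at *RpLP2* (1.77).

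In the track 29799 fragments (7.97%) are written as a bare 0, apart from values that round to 0, and 24499 of them are written so in all 3 tracks. What a bare 0 stands for is not given in the sources used. They were most frequent next to centromeres: 40.5% of fragments in the 2 Mb of 3L next to the centromere are written as 0, against 6.32% on the rest of that arm. For 276 of 17684 annotated genes every fragment is written as 0. These include 150 protein-coding genes, of which 91 are copies of the replication-dependent histone genes (repeated copies between which reads could be divided). Genes written as 0 throughout were left out of list counts and medians. They were kept in the totals of 13922 protein-coding genes and 17684 genes.

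Neighbouring fragments had alike values over a short distance. Pearson's r across fragments, which are not independent, was 0.75 between adjoining fragments (median distance 248 bp) and 0.35 between fragments 3 apart (825 bp). It was 0.16 at 10 apart (3009 bp) and 0.05 at 50 apart. Most of the likeness between fragments was thus lost within about 1 kb. Of all fragments 32.2% were shorter than 100 bp, and adjoining short fragments could hold the same value. At *lola*, for example, adjoining fragments of a few bp each had -0.992. How far such fragments bear on r, on runs of adjoining fragments and on counts of fragments above 0 was not tested.

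The 5 large arms had nearly the same length-weighted mean, from -0.05 on 3L to -0.04 on 3R. The fourth chromosome, a small and largely heterochromatic chromosome that is nonetheless rich in active genes, stood apart with -0.23, and 17.2% of its fragments were at -0.5 or less. On the large arms that share was 4.52% to 5.37%. The X had the smallest share of fragments at 0.5 or more among the large arms, 2.5%, against 3.44% to 3.97% on the autosomal arms. The mean was -0.04 in genes and -0.06 between them. In 395 gene-free gaps of at least 20 kb the median was -0.04, with 9 gaps at -0.3 or less and 0 at 0.3 or more. Fragments at 0.5 or more made up 4.05% in genes, 1.84% between genes and 0.759% in the gaps. Those at -0.5 or less made up 5.1%, 5.3% and 3.29%. Fragments written as 0, which were kept in these values, made up 4.98%, 16.7% and 27.6%.

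For each gene the value was the mean of the fragments it overlaps, with longer fragments given more weight. A gene was called high at 0.3 or more and low at -0.3 or less. Of 13922 protein-coding genes, 725 (5.21%) were high and 1417 (10.2%) were low, and the median gene had 0.00. Without the 150 genes written as 0 throughout, the shares were 5.26% and 10.3%. With wider limits the excess of low genes was larger: 105 genes were at 0.5 or more and 527 were at -0.5 or less, and 4 genes were at 1 or more against 55 at -1 or less. The calls belong to the gene spans alone: with 5 kb added on each side, 9 of the 725 high genes and 373 of the 1417 low genes were still called. With the unweighted median of fragments as the gene value, 389 of the high (53.7%) and 812 of the low genes (57.3%) were still called, and 31 low genes changed sign. A low gene had, at the median, a lowest fragment of -1.10 and a highest of -0.04, and 897 of the 1417 held no fragment above 0. High genes had a highest fragment of 0.79 at the median, and 359 of the 725 were above 0 in every fragment. Low genes lay side by side: 676 (47.7%) had a low gene as the next protein-coding gene on one side or the other, against 15.8% of the genes between the limits. High genes did so less, with 167 (23.0%) beside another high gene, against 9.76% of the genes between the limits. Overlapping genes, which share fragments, were counted as neighbours, and their part in these shares was not tested.

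Among genes with at least 5 fragments, the lowest was *Bka* (2L, 9895287 to 9896104) at -1.54, with fragments from -2.51 to -0.58. It was followed by *CG17486* (-1.34), *CG13339* (-1.33), *CG12868* (-1.32) and *Fis1* (-1.31), whose product acts in mitochondrial fission. *Bacc* had -1.28, *CG5245* -1.24, *CG46466* on the fourth chromosome -1.23 and *CG8441* -1.11. *tsr*, which encodes the actin-severing protein cofilin, had -1.15. Each of these 10 genes was below 0 in every fragment.

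The highest gene was *CG34130* (3R, 26189004 to 26189977) at 1.17, with all 7 fragments above 0 and the highest at 1.66. *Obp99a*, an odorant-binding protein gene, had 0.88. *Jhe*, which encodes juvenile hormone esterase, had 0.79 over 21 fragments, all above 0. The odorant receptor gene *Or45b* had 0.73 and the accessory gland serpin gene *Acp76A* had 0.68. *PIG-Wb* (0.80), *CG13829* (0.78), *CG33159* (0.73), *CG17681* (0.73) and *Eglp1* (0.71) completed the 10.

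Among the protein-coding lists with over 20 genes, the largest share of low members was in the cytoplasmic ribosomal protein genes, which serve cell growth. They had a median of -0.29, and 45 of 91 (49.5%) were low against 10.2% of all protein-coding genes. The lowest were *RpS24* (2R, 22640526 to 22641419) at -1.45 and *RpL21* at -1.35, followed by *RpL15* (-1.09). A single member was high, *RpLP2*, which encodes the acidic stalk protein P2 and had 1.09 from 4 fragments that ran from -0.23 to 1.77. Its partner in the stalk, *RpLP1*, had -0.15. Of the 91 genes, 28 held fewer than 5 fragments. With 5 kb added on each side the list median was -0.13.

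The other growth lists had lower shares of low genes but the same direction, beside 10.2% low and 5.21% high among all protein-coding genes. Mitochondrial ribosomal protein genes had a median of -0.19 with 27 of 73 low and 0 high, and *mRpL55* was the lowest at -1.47. Genes of the respiratory chain had -0.18 with 30 of 87 low, led by *ATPsynD* (-0.96), the gene next to *mRpL55* on 3R, and *COX5A* (-0.84), and a list median of -0.10 by unweighted medians of fragments. Translation factor genes had -0.15 with 16 of 53 low, among them *eIF4A* (-0.62), the helicase of cap-dependent initiation, and *eEF1alpha1* (-0.53). Proteasome genes had -0.10 with 9 of 47 low and 2 high. Heat shock protein genes had a median of -0.03, and the low members were the small heat shock genes *Hsp27* (-0.97), *Hsp26* (-0.62) and *Hsp67Ba* (-0.42).

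**Figure D2:**
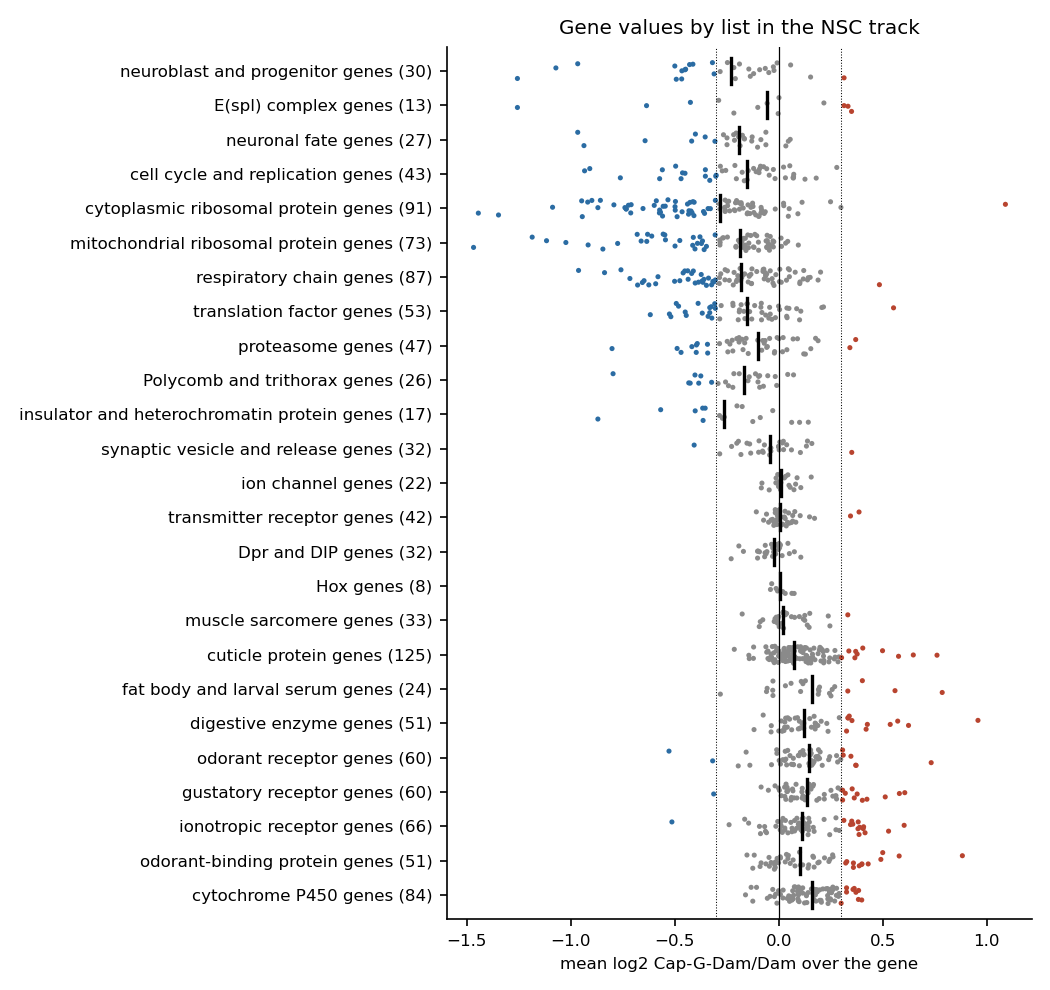
Value of each gene in the NSC track (points, mean log2 Cap-G-Dam/Dam over the gene) by list, with the number of genes that have a value in brackets and the list median as a black bar; blue points are at -0.3 or less, red points at 0.3 or more, dotted lines mark these limits, and a gene in several lists is drawn in each. Growth and stem cell lists reach far below 0, ion channel, Dpr and DIP and Hox genes stay between the limits, and chemoreceptor, digestive and P450 genes lie mostly above 0.

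The high members of these growth lists were mostly extra copies of a gene. To describe this, each gene of the cytoplasmic ribosomal protein, proteasome, respiratory chain and translation factor lists was set beside the copies named after it (suffixes such as R, T, L or -like, or number 2 beside number 1); the pairing was chosen after the values had been seen and is a description only. In 41 of 45 pairs the copy had the higher value, with a median of 0.05 for the copies and -0.21 for the genes they are named after. In the 34 pairs with at least 5 fragments in both genes the copy was higher in 34. None of the 39 namesakes was above 0 and 15 were low. Of the copies, 34 of 45 were above 0, 4 were high and 3 were low. Many copies of this kind are known in *Drosophila* for expression in the testis. The widest gap was between *Rpn12* (-0.80, 8 fragments, none above 0) and *Rpn12R* (0.37, 5 fragments, all above 0), genes for a lid subunit of the proteasome on the same arm. The initiation factor gene *eIF3f1* had -0.48 and *eIF3f2* had 0.55. The citric acid cycle gene *SdhA* had -0.58 and *SdhAL* had 0.10. The 4 exceptions, *ND-B14.5AL*, *Prosbeta4R1*, *COX4L* and *COX7CL*, each held 2 fragments. The copy was also higher in 34 of the 45 pairs in the elav-GAL4 track and in 39 in the nSyb-GAL4 track.

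**Figure D3:**
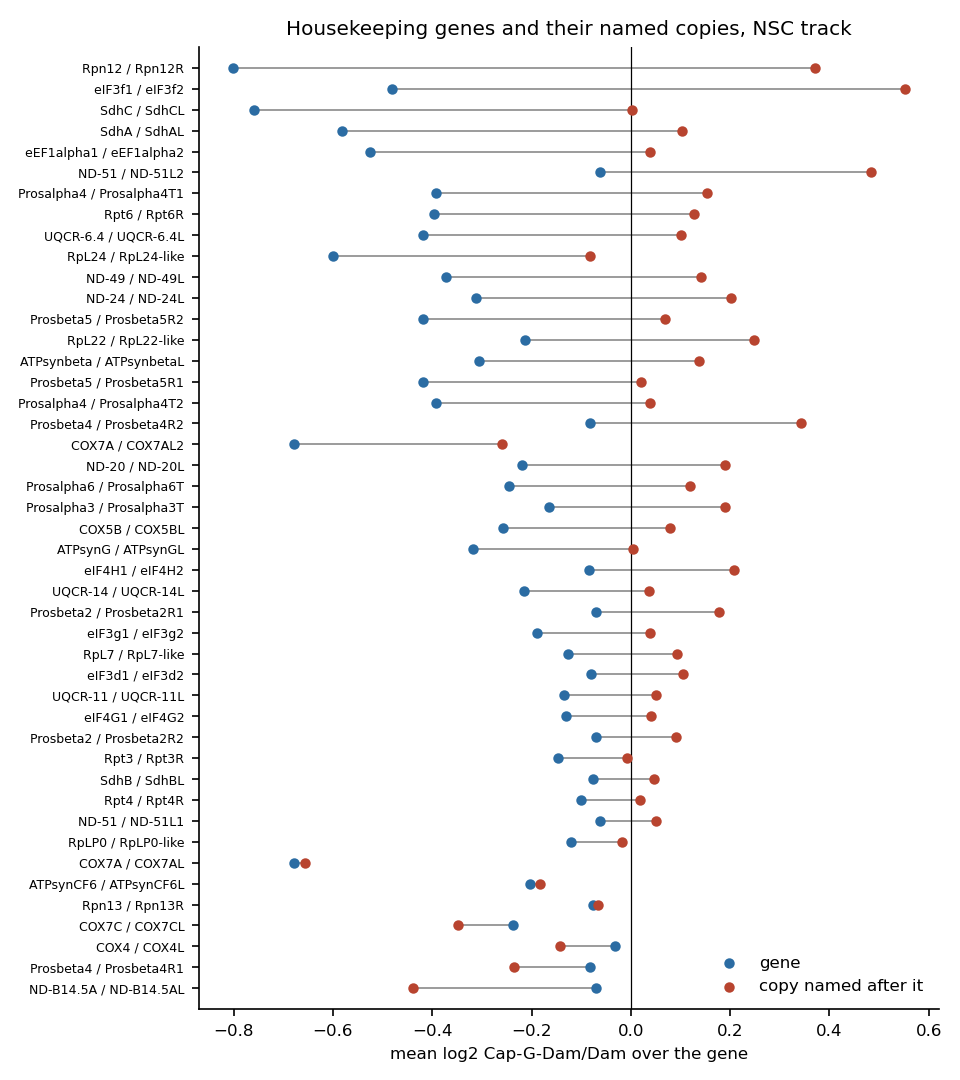
Value of each housekeeping gene (blue) and of the copy named after it (red) in the NSC track (horizontal axis, mean log2 Cap-G-Dam/Dam over the gene), 45 pairs ordered by the difference, with *Rpn12* and *Rpn12R* at the top. The red point lies to the right of the blue one in 41 pairs, and no blue point lies above 0.

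Genes that set the identity of NSCs were also mostly below 0. The 3 marker genes were *ase* (X, 460747 to 463176) at -1.07, *wor* (2L, 15423297 to 15425580) at -0.31 and *dpn* (2R, 8228971 to 8232330) at -0.21, all of which encode transcription factors of neuroblasts. *ase* and *wor* had no fragment above 0 in 12 and 13 fragments, while *dpn* had 8 of 18 above 0. The ratio is not a measure of expression, so the cell type could not be checked with these genes. Markers of other cells stood at -0.64 for *elav*, -0.08 for *nSyb*, 0.02 for *brp* and 0.00 for *Syt1* among neuronal genes. The fragments of *nSyb* ran from -0.77 to 0.92, with 12 of 24 above 0, so its mean averages parts of both signs. Glial genes stood at 0.05 (*repo*), 0.28 (*moody*), 0.37 (*wrapper*) and -0.28 (*Eaat1*), muscle genes at 0.02 (*Mhc*), 0.15 (*Mlc2*) and 0.02 (*Act57B*), and fat body genes at 0.56 (*Lsp2*) and 0.40 (*Fbp1*).

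Of 30 neuroblast and progenitor genes, 13 (43.3%) were low and 1 (3.33%) was high, against 10.2% and 5.21% of all protein-coding genes. The median was -0.23 (-0.14 by unweighted medians of fragments, and -0.14 without the genes of 2L). The low genes included *cas* (-0.50), a temporal factor, *esg* (-0.47) of the Snail family, *brat* (-0.47) and *numb* (-0.49), whose products are inherited by 1 daughter at division, *mira* (-0.41), the adaptor that carries Brat, and *erm* (-0.45) and *tll* (-0.45). Among asymmetric division genes *polo*, the mitotic kinase gene, was lowest at -0.57, and *l(2)gl* (0.04) and *pins* (0.03) were highest. Temporal factor genes had a median of -0.14. Their lowest member was *lin-28* (-0.81), and *hb* (0.01) and *Kr* (-0.01) were highest.

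The Enhancer of split complex, a cluster of Notch target genes over 52.3 kb of 3R that includes bHLH repressor and Bearded family genes, held 3 high and 3 low genes. Among the genes of the complex, none of the high genes was next to a low one. Just outside it, *CG43116* (-1.01) lay beside the high gene *E(spl)mdelta-HLH*. *E(spl)m8-HLH* (26040240 to 26041008) had -1.26, with its 3 fragments between -1.93 and -1.03. *E(spl)malpha-BFM* had -0.64, *E(spl)mbeta-HLH* -0.43, *E(spl)m7-HLH* -0.29 and *E(spl)mgamma-HLH* -0.22. The high genes were *E(spl)m2-BFM* (0.35), *E(spl)m5-HLH* (0.33) and *E(spl)mdelta-HLH* (0.31). *E(spl)m3-HLH* and *E(spl)m4-BFM* stood at 0.00. *E(spl)mdelta-HLH* and *E(spl)mgamma-HLH* are neighbours, and their values differed in sign.

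Cell cycle and replication genes had a median of -0.15. Of 43 genes 14 (32.6%) were low and 0 were high, against 10.2% and 5.21% of all protein-coding genes. However, the median was -0.03 when gene values were unweighted medians of fragments. The lowest were *dap* (-0.93), which encodes a cyclin-dependent kinase inhibitor, and *Cdk1* (-0.91), the mitotic kinase. *CycB3* had -0.76, *RnrS*, a subunit of ribonucleotide reductase, -0.56, and *pim*, which encodes securin, -0.50. Both genes of E2F factors were low (*E2f1* -0.45, *E2f2* -0.46). *stg*, the Cdc25 phosphatase gene, had -0.35 with none of its 20 fragments above 0, and *CycE* had -0.30. Above 0 were *thr* (0.28), whose product acts with separase, and *Mcm7* (0.18), a subunit of the replicative helicase. Of 17 condensin and cohesin genes 1 was low, *Cap-H2* of condensin II (-0.34), and *barr* of condensin I had -0.17. *Cap-G* itself (2R, 13133142 to 13142820) had 0.08, with 22 of 35 fragments above 0 and 9 written as 0. The Cap-G-Dam animals, unlike the Dam-only animals, also carried a *Cap-G* cDNA in the transgene. Its part in the value at this gene was not tested.

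Low genes were also frequent among chromatin regulators, with 26.9% of Polycomb and trithorax and 35.3% of insulator and heterochromatin protein genes. Among all protein-coding genes 10.2% were low. Of 26 Polycomb and trithorax genes 7 were low (median -0.17), with *ph-p* at -0.80, *pho* and *Trl* at -0.43 and *osa* at -0.40. *ph-p* and *ph-d*, which are tandem duplicates, had different values, and *ph-d* stood at -0.22. Of 17 insulator and heterochromatin protein genes 6 were low (median -0.26). *Ibf1* (-0.87), *Ibf2* (-0.40), *BEAF-32* (-0.57), *mod(mdg4)* (-0.36) and *CTCF* (-0.35) were low and encode insulator proteins. The sixth low gene, at -0.37, was that of the heterochromatin protein HP1a.

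The longest continuous feature of the track was at *lola*, a transcription factor gene with many isoforms (2R, 10481894 to 10543291). A low stretch, here a run of at least 4 adjoining fragments that are all at -0.5 or less, covered 10.3 kb of it in 40 fragments with a mean of -1.20 (10529186 to 10539489). Another of 19 fragments (10541326 to 10548115, mean -1.78) ran over the end of the gene and into the DNA beyond it. In 5 kb steps along the gene the mean was between -0.31 and -0.04 over the first 35 kb, -0.45 at 35 to 40 kb, -0.37 at 40 to 45 kb and -0.70 at 45 to 50 kb. It was -1.46 at 50 to 55 kb, -0.75 at 55 to 60 kb and -1.75 at 60 to 65 kb, around the gene end, so the low part was not an even slope. The 4 snoRNA genes inside *lola* had from -2.34 (*snoRNA:lola-d*) to -1.44 (*snoRNA:lola-c*). Over its whole span *lola* had -0.42, so the gene value understates the low part and overstates the rest.

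**Figure D4:**
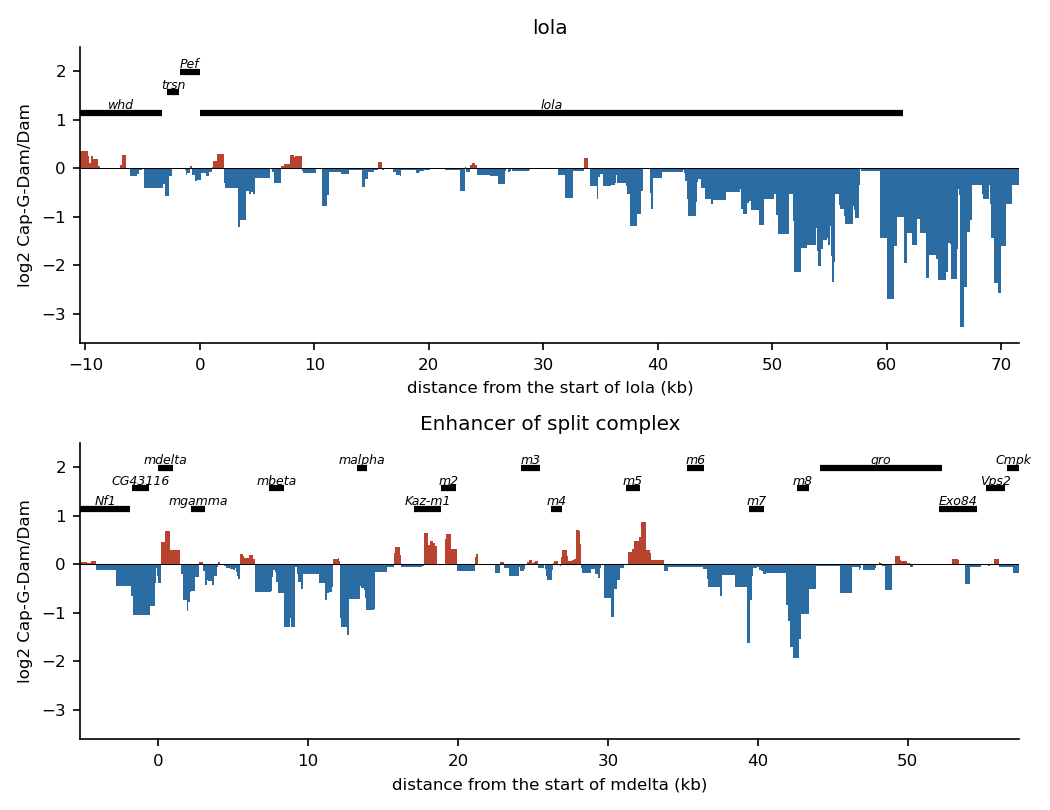
Value of each GATC fragment in the NSC track (bars, log2 Cap-G-Dam/Dam, red above 0 and blue below) along *lola* and along the Enhancer of split complex, by distance in kb from the start of *lola* and of *E(spl)mdelta-HLH*, with protein-coding genes as black lines (E(spl) names shortened). Low fragments gather over the far end of *lola*, with stretches at -1.20 and -1.78, and in the complex fragments above and below 0 alternate within a few kb.

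Across the genome there were 1371 low stretches over 2.51 Mb and 602 high stretches (at least 4 adjoining fragments, all at 0.5 or more) over 0.475 Mb. Low stretches had a median length of 1631 bp and 32 were over 5 kb. High stretches had a median of 753 bp and none was over 5 kb. A protein-coding gene was overlapped by 81.3% of the low and 90.2% of the high stretches. Fragments mostly within annotated genes of any type held 69.7% of all bases in the track. Any overlap counted for a stretch, so these shares are not on the same measure and show no enrichment. The centre lay within 1 kb of an end of a protein-coding gene in 48.3% of low stretches and 39.0% of high ones, against 29.7% of all fragments. Low stretches numbered 40.1 per Mb on the fourth chromosome and 8.62 to 11.3 on the large arms. High stretches numbered 2.59 per Mb on X and 4.47 to 5.82 on the large autosomal arms. Low stretches overlapped 1344 protein-coding genes and high stretches 585, and 57 genes were in both sets. *jing* and *pros* each held 6 low stretches, and *E2f1*, *Tet*, *arg*, *pan*, *scro* and *tna* held 5 each.

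After *lola*, the longest low stretches were over transcription factor, chromatin and metabolic genes. A stretch of 8598 bp (mean -1.23) crossed *Pgk*, a glycolysis gene, with *Bacc*, *HemK2* and *Snapin*, of which *Pgk* had -0.49 and *HemK2* and *Snapin*, which share their span, -0.50. One of 7992 bp (mean -1.17) lay in *jing*, a zinc finger gene with -0.38 over its 120 kb. One of 7862 bp (mean -1.03) lay over the forkhead gene *jumu* (-0.74) and the end of *CG31406* (-0.09), and one of 7844 bp (mean -1.16) lay in *osa*, which encodes a subunit of the Brahma remodelling complex. The stretch at *ph-p* was among the deepest, with -1.89 over 7457 bp.

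The longest high stretches were short and lay in genes of other kinds. The longest, 2250 bp on 3L (668111 to 670361, mean 0.71), overlapped no gene and lay 7518 bp from the nearest protein-coding gene, *CG17129*. The next lay in *CG5756* (2194 bp, mean 0.72), which had 0.40 over the gene with all 33 fragments above 0, and in *CG13731* (2139 bp, mean 0.78). A stretch of 1977 bp on 3R (86734 to 88711) had the highest mean of these 5, 1.37, and lay in the same gene-free heterochromatin as the highest fragments. Its mean was -0.01 with elav-GAL4 and 0.50 with nSyb-GAL4. In *arr*, which encodes a Wingless co-receptor, a stretch with 0.86 stood beside fragments as low as -1.71, and the gene value was -0.10.

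Lists of genes used by differentiated neurons differed in their medians, and most had few genes past a limit. Ion channel genes had a median of 0.01 with 0 of 22 high and 0 low. Transmitter receptor genes had 0.005 with 2 of 42 high (4.76%), close to the 5.21% of all protein-coding genes. The 2 were *GluRIIC* (0.39) and *GluRIIA* (0.35), which encode subunits of the muscle glutamate receptor. Dpr and DIP cell surface genes had -0.03 and guidance and adhesion genes -0.10, each with no gene past a limit in 32 and 42 genes. Of the guidance and adhesion genes 39 were below 0. Synaptic vesicle and release genes had -0.04, with *VAChT* low (-0.41) and *SerT* high (0.35). Transmitter synthesis genes had 0.11, with 7 of 9 above 0. *Tdc1* (0.37) and *Tdc2* (0.33), the tyrosine decarboxylase genes, were high and *Gad1*, for GABA synthesis, was low (-0.32). *nSyb* had -0.08 over the gene but held a high stretch of 653 bp with a mean of 0.83 (3L, 1634390 to 1635043). The paper reports Cap-G peaks at this gene in NSCs. Most genes of these lists are long, with median spans of 20904 bp for transmitter receptors and 44269 bp for ion channels. Long genes had less extreme values as a class.

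Genes that specify neurons were placed with the stem cell genes instead. Of 27 neuronal fate genes 7 (25.9%) were low, against 10.2% of all protein-coding genes, and 0 were high. The list median was -0.19 (-0.08 by unweighted medians of fragments). *nerfin-1*, a zinc finger gene of new neurons, had -0.97, the homeobox gene *hbn* -0.94 and *elav*, the RNA-binding protein gene of all neurons, -0.64 (X, 509235 to 523226, with 1 of 44 fragments above 0). The Pax6 genes *ey* (-0.40) and *toy* (-0.35) were low too. Hox genes had a median of 0.01 with none past a limit, and ranged from -0.04 (*Antp*) to 0.07 (*lab*). Wnt ligand genes had 0.04 with none past a limit in 7. Among segmentation and patterning genes (median -0.03) 5 of 48 (10.4%) were low, close to the 10.2% of all protein-coding genes, with *slp1* at -0.75.

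Several gene families of other tissues lay mostly above 0. Cytochrome P450 genes, which act in detoxification and hormone metabolism, had a median of 0.16 and 73 of 84 were above 0, with 9 high and 0 low (5.21% of all protein-coding genes were high). Odorant receptor genes had 0.15 (0.08 by unweighted medians of fragments) with 52 of 60 above 0, gustatory receptor genes 0.13 with 55 of 60 and ionotropic receptor genes 0.11 with 55 of 66. High members numbered 6, 11 and 13. *Gr93c* (0.61), *Ir51a* (0.60) and *Gr47b* (0.58) were among the highest, and *Or67d* (-0.53) and *Ir31a* (-0.51) were the lowest. *Ir51a* is annotated as a pseudogene, so the ionotropic receptor list is not limited to protein-coding genes. Odorant-binding protein genes had 0.10 with 12 of 51 high and 0 low. Digestive enzyme genes had 0.12 with 11 of 51 high and 0 low, among them *Jon65Aii* (0.62), a serine protease gene of the gut. The lysozyme gene *LysE* had 0.96, but the lysozyme genes are near-identical copies between which reads could be divided. With 5 kb added on each side the medians were 0.05 for P450, 0.03 for odorant receptor, 0.06 for gustatory receptor, 0.04 for ionotropic receptor and -0.004 for odorant-binding protein genes.

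Fat body and larval serum genes had a median of 0.16, with *Jhe* (0.79), *Lsp2* (0.56), *Fbp1* (0.40) and *PPO1* (0.33) high and none low among 24. Cuticle protein genes had 0.07, with 10 of 125 high and 0 low, led by *Lcp65Af* (0.76) and *Ccp84Ab* (0.65). Muscle sarcomere genes had 0.02 with 1 of 33 high, *Obsc* (2R, 23995543 to 24014254), the giant obscurin gene also known as Unc-89. It had 0.33 over 106 fragments, 100 of them above 0. Antimicrobial peptide genes had 0.05 and were spread widely, from *BomS1* (1.17) to *CecC* (-0.64), but 23 of 26 held fewer than 5 fragments. Glutathione S-transferase genes had 0.07, with 7 of 35 high (*GstE9* 0.68, *GstD3* 0.50) and 3 low. Glial genes had 0.03, with *wrapper* high (0.37) and *Lac* (-0.52) and *Nrx-IV* (-0.51), both of septate junctions, low.

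Shares of low genes differed among the kinds of small RNA gene. Among all 17684 genes 4.96% were high and 11.4% were low. Of 257 snoRNA genes 102 (39.7%) were low and 7 were high, with a median of -0.19. Of 295 genes in the tRNA list 89 (30.2%) were low and 3 were high, with a median of -0.10. The annotation types 290 genes as tRNA (30.3% low), so the list also holds entries of other types. Of 32 snRNA genes 9 were low. tRNA-His genes were the lowest isotype, with a median of -1.32 and 4 of 6 low. MicroRNA genes were closer to the background, with 35 of 260 low and 23 high (*mir-2c* -1.84, *mir-4* 0.88). Nearly all of these genes hold fewer than 5 fragments and many share 1 fragment with a neighbour or a host gene, as *tRNA:Ala-CGC-1-2* and *tRNA:Ala-CGC-1-3* did (both -2.09). Of 100 genes in the 5S rRNA list 65 are written as 0 throughout, and none of the other 35 was high or low.

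The mean over all protein-coding genes was lowest around gene ends. Over both ends of all protein-coding genes, in windows of 250 bp, the mean was -0.13 just outside the end and -0.12 just inside. It returned to -0.04 at 1750 to 2000 bp outside and to -0.01 at 1000 to 1250 bp inside. The median was nearer 0 than the mean, at -0.04 just outside and just inside. Strand was not used, so starts and ends of transcription are pooled. For cytoplasmic ribosomal protein genes the mean was -0.32 just outside, -0.39 at 250 to 500 bp inside and -0.11 at 1750 to 2000 bp outside. For neuroblast and progenitor genes the mean was -0.44 just outside and -0.45 just inside, and -0.15 at 1750 to 2000 bp outside. Their medians were -0.21 just outside and -0.23 just inside. Farther inside, their mean was -0.33 at 4000 to 4250 bp, from 24 gene ends. Transmitter receptor genes showed little of this, with -0.04 just outside and -0.03 just inside. Chemoreceptor genes went the other way, with 0.04 just outside and 0.16 at 500 to 750 bp inside, and P450 genes had 0.03 and 0.17 at the same places.

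**Figure D5:**
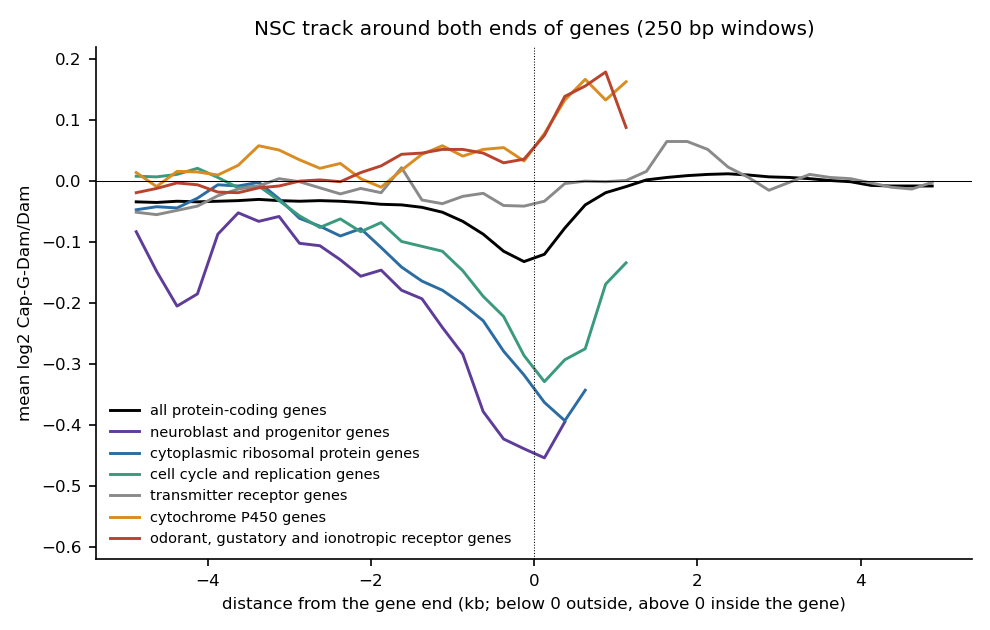
Mean log2 Cap-G-Dam/Dam of the NSC track in 250 bp windows by distance from both ends of genes (kb, below 0 outside and above 0 inside the gene up to its middle), for all protein-coding genes (black) and for 6 lists, drawn where at least 50 gene ends contribute. The dip at gene ends is -0.13 for all genes and -0.44 for neuroblast and progenitor genes, and P450 and chemoreceptor genes are above 0 inside the gene.

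Gene length and fragment length bore on how extreme a value could be. Protein-coding genes were divided by length into 5 groups of equal size. The SD of gene values was 0.30 in the shortest group (up to 1044 bp) and 0.145 in the longest (from 6562 bp), while the medians lay between -0.01 and 0.01. The longest group had 0.581% high and 4.9% low genes, against 7.62% and 14.0% in the shortest, although its genes held the most extreme fragments, with a lowest of -0.65 and a highest of 0.58 at the median. Fragments of 200 to 400 bp were at 0.5 or more in 7.56% of cases and those of 800 to 1600 bp in 0.0643%, while the shares at -0.5 or less were 6.73% and 5.2%. Divided likewise by fragments per kb, genes of the sparsest group were high in 0.399% of cases and those of the densest in 9.15%. The share of high genes thus moved with the density of GATC sites, and its part in the lists was not tested.

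Over 100 kb the lowest of 1341 bins was the one that holds *lola* and *psq* (2R, -0.46). Next were bins on the fourth chromosome (-0.42, with *lgs* and *CaMKI*), at *jing* (-0.39) and at *tna* (-0.34), and a bin on 3L with no protein-coding gene (-0.30). A bin at *pros*, the gene of the factor that ends stem cell divisions, had -0.29. In all 42 bins were at -0.2 or less, and 3 were at 0.1 or more, the highest 0.12 on 2R.

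Set beside the neuronal tracks, which were normalised separately and are therefore given as percentiles among protein-coding genes of each track, some list medians had like places in all 3 tracks. The median cytoplasmic ribosomal protein gene was at percentile 10.8 in NSCs, at 13.6 in the elav track and at 10.7 in the nSyb track, and the median P450 gene was at 84.0, 75.7 and 78.8. The median neuroblast and progenitor gene was at 14.1, 6.09 and 69.4. For transmitter receptor genes it was 53.3 in NSCs, 38.3 in the elav track and 23.1 in the nSyb track. *hbn* was at 0.607, 0.406 and 82.9 in this order. *stg* was at 7.78, 1.97 and 90.9, and *elav* at 1.97, 3.27 and 3.95. With 1 averaged track per driver these differences were not tested.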

How the data were processed

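Targeted DamID of Cap-G was measured in 2 Cap-G-Dam and 2 Dam-only samples with wor-GAL4. The authors mapped reads with Bowtie2 (version not given in the sources used) to release 6.03 of the genome (BDGP6), binned them by GATC fragment, normalised Cap-G-Dam to Dam-only and averaged replicates. The deposited values are these log2 ratios, 1 track per driver. Depth is not given in the track, so its precision is unknown.

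Gene spans came from a RefSeq gene table of the same release 6 assembly (17684 genes), without strand, exons or sequence. Gene values are length-weighted means over all fragments. In all, 48 lists with 2650 genes were matched, and 1 symbol was not. List counts and medians leave out genes written as 0 throughout. The members and lists were chosen with earlier results of these data known. Genes named are the markers, those the study names, the 10 highest and lowest with at least 5 fragments, the 2 highest and lowest of each list and those over the 5 longest stretches; others, such as further high or low members, were named after their values were seen. The alternatives were other ways of averaging fragments, other limits and arms left out. Python 3.11.15, numpy, pandas and matplotlib were used, and the functions were tested on simulated data. RNA-seq samples were not analysed here.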

Additional observations from a re-analysis of the deposited data

How the results depend on the processing

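No paired analysis was possible because the track holds the average of both replicates, and for the same reason no replicate was left out. Promoter motifs were not run. Depth is unknown, so no precision can be given to a single fragment or gene. Wider gene spans (5 kb added on each side) average a gene with its neighbours by construction; for other changes the cause was not tested.

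With 5 kb added, 16 protein-coding genes were high and 608 low, and of those called before, 9 of 725 (1.24%) and 373 of 1417 (26.3%) were still called. The unweighted median of fragments gave 922 low genes, and 389 of 725 high (53.7%) and 812 of 1417 low calls (57.3%) were kept. Limits of 0.2 gave 1638 high and 2302 low genes, and limits of 0.5 gave 105 and 527. List medians with 5 kb added were -0.175 for neuroblast and progenitor, -0.093 for cell cycle, -0.134 for cytoplasmic ribosomal, -0.119 for mitochondrial ribosomal, -0.112 for respiratory chain, 0.027 for odorant receptor, 0.063 for gustatory receptor, 0.037 for ionotropic receptor and 0.052 for P450 genes, and odorant-binding protein genes changed sign to -0.004. With the unweighted median they were -0.143 for neuroblast and progenitor, -0.03 for cell cycle, -0.104 for respiratory chain, -0.084 for neuronal fate and 0.079 for odorant receptor genes. Fragments of 200 to 2000 bp alone gave -0.217 for cell cycle genes. Without 2L, 2R or X the neuroblast and progenitor median was -0.144, -0.282 or -0.315, and without X the cytoplasmic ribosomal median was -0.34.

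Named genes called high or low that changed sign with 5 kb added were *CG17681* (-0.062), *Acp76A* (-0.029), *E(spl)mdelta-HLH* (-0.245), *E(spl)m5-HLH* (-0.018), *E(spl)m2-BFM* (-0.019), *Rpn12R* (-0.069), *CecA2* (-0.107), *BomS1* (-0.033), *Gr39b* (0.175, and 0.03 with the median), *Gr47b* (-0.095), *Ir60c* (-0.016), *snoRNA:Tudor-SN-a* (-0.396) and *snRNA:U1:82Eb* (-0.069). Sign changes of named genes between the limits were not counted. Over all alternatives 465 of 522 list medians and 769 of 1164 named gene values moved by less than 0.05.

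Runs of at least 2 fragments gave 3431 high and 4643 low stretches, and runs of at least 8 gave 14 and 173. A limit of 0.3 gave 2383 and 2820 stretches, and a limit of 1 gave 21 and 235. By the median of fragments the fourth chromosome had -0.118, and the DNA between genes and in gaps over 20 kb had 0.0.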

Other observations

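Other gene groups had medians on both sides of 0 in NSCs. Neuropeptide genes had a median of 0.03, with 3 of 40 high and 3 low. *ETH*, the gene of ecdysis triggering hormone, had 0.40 with all 6 fragments above 0, the insulin-like peptide gene *Ilp7* had 0.35, and the leucokinin gene *Lk* had -0.49. Osiris genes, a family clustered mostly at 1 place on 3R, lay between -0.09 and 0.22, and none of 25 passed a limit. Chorion and eggshell genes had a median of 0.12 with 8 of 11 above 0 and 1 high. Salivary glue genes had -0.00 with none of 23 past a limit, and the glue gene *Sgs3* was lowest at -0.298. Seminal fluid protein genes had -0.01 and were spread widely, with 4 of 53 high and 5 low, and 42 of them held fewer than 5 fragments.

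Some low features had values of the other sign in the nSyb track. A stretch of 7190 bp on 3R (30756768 to 30763958, mean -1.002), 1968 bp from *zfh1*, overlapped no gene and had 0.04 in the nSyb track. Another of 7408 bp on 3L, over *tap* and *Cad74A*, had -1.25 in NSCs, -1.64 in the elav track and 0.18 in the nSyb track. A single fragment of 431 bp on 3L (11421446 to 11421877) outside any gene had -3.65 in NSCs, -1.46 in the elav track and 0.16 in the nSyb track. The tracks were normalised separately and these differences were not tested.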
